A study of Mus musculus with 6 samples.

Results

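The genes described here encode integrin chains of BV2 cells, an immortalized mouse microglial line. They are the 9 rows of the gene count table with the symbols Itga1, Itga4, Itga5, Itga6, Itgal, Itgav, Itgb1, Itgb3 and Itgb7, out of 46095 rows. They were chosen by name from the 27 integrin chains in the table, and the other 18 are described only beside them. All 9 symbols were found in the table. In the study, BV2 cells were sequenced to learn which microglial functions respond to sTREM-1, the soluble form of triggering receptor expressed on myeloid cells-1. The CON group was untreated, and the sTREM-1 group had been exposed for 6 h to the recombinant protein at 1 µg/mL. Each group had 3 libraries. The caption of the paper's figure with these data cites at least 3 separate experiments but does not tie them to the libraries. The sources used here do not say whether the libraries came from separate cultures. The p-values thus measure only the spread between libraries, which may be technical.

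Integrins are adhesion receptors built of an α chain and a β chain, and a chain reaches the cell surface only with a partner. The α chain largely sets the ligand: α4 binds VCAM-1, MAdCAM-1 and fibronectin, α5 and αV bind RGD sequences as in fibronectin, vitronectin and osteopontin, α6 binds laminins, α1 binds collagens, and αL binds ICAMs. Their cytoplasmic tails connect to actin through talin and kindlin, and on microglia and macrophages integrins serve in adhesion, migration and the uptake of particles.

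After sTREM-1, Itga4 was higher and Itgb7 and Itga6 were lower, while the other 5 tested members were not called and Itga1 had 0 counts throughout. Itga4 rose by 17.3%, Itgb7 fell by 13.0% and Itga6 fell by 6.80%. Of the 8 members tested, 3 were called at an adjusted p-value under 0.05 by edgeR's quasi-likelihood test, 1 higher and 2 lower. Among all 14120 genes tested 30.5% were called, with 16.5% higher and 14.1% lower, so that the share of members called was near that of all genes. The excess of higher calls among all genes turned when libraries were scaled by total counts, with 2026 higher and 2280 lower against 2324 and 1988 with TMM, while the members called were 3 under both. The median absolute log2 fold change was 0.0734 over the 8 members and 0.127 over all tested genes. These sets were not matched by level, and counting noise enlarges the absolute changes of genes with few counts. In bulk RNA, a change in the RNA per cell and a change in the mix of cell states cannot be told apart.

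The libraries held 40070633 to 45877107 counts each, of which the 9 members took 0.139% to 0.144%. No 2 libraries agreed within sampling noise (chi-square per gene 3.46 to 5.04 inside a group and 20.6 to 22.6 across groups). This compares libraries with counting error only, so it does not show separate cultures. Each library was counted as a replicate. Of 12 microglia and macrophage markers, 11 were tested, 5 were higher and 0 were lower (45.5% called, against 30.5% of all tested genes), and their summed level was 2677 to 2702 CPM (counts scaled to the same library total, with TMM-adjusted totals) in the CON group and 2971 to 3035 CPM after sTREM-1. Cd68, Csf1r and Adgre1 were abundant, Tmem119, P2ry12 and Cx3cr1 had means under 2 CPM, and Aif1 had 0 counts in all libraries. Bag6, a neighbour of Aif1 that most cells express, was also at 0 and Ddx39b, another, had at most 1 count, so that a 0 in this table may come from the counting and does not show that a gene was silent. The summed levels of astrocyte, oligodendrocyte, endothelial and fibroblast, and T cell and platelet markers stayed under 8 CPM, with Aqp4, Aldh1l1, Mog, Cldn5, Dcn, Cd3e and Gp9 at 0. The neuron list summed to 26.4 to 31.6 CPM, nearly all from Syn1, with Rbfox3 at 0. Syn1 was lower after sTREM-1, with 31.1 ± 0.279 and 26.9 ± 0.436 CPM (SD, n = 3 each) and a log2 fold change of -0.21 (edgeR adjusted p = 0.00283). The part of the marker levels in the integrin results was not tested. Transcripts of Trem1 had 17 to 42 counts per library, and the protein added to the cells leaves no transcript to check.

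To show the upstream sequence of members that moved and of a β chain shared by 5 of the 6 member α chains, the bases before the transcription start of Itga4, Itgb7 and Itgb1 are given 5′ to 3′ on the coding strand (RefSeq, GRCm38.p6), trimmed where GENCODE M21 starts the gene earlier. Capitals mark matches, on either strand, to the PU.1 core GAGGAA, the Sp1 box GGGCGG or the AP-1 letters TGANTCA.
Itga4, chr2:79255176-79255425, plus strand: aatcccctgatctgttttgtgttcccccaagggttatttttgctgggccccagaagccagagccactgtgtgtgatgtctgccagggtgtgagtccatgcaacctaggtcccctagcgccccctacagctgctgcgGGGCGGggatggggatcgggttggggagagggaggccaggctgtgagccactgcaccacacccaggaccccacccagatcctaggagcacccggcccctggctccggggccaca
Itgb7, chr15:102231945-102232185, minus strand: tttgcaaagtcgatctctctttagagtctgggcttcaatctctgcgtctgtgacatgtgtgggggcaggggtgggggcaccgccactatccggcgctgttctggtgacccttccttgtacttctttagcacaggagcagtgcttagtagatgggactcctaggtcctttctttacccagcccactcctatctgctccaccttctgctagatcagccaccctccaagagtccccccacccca
Itgb1, chr8:128685404-128685653, plus strand: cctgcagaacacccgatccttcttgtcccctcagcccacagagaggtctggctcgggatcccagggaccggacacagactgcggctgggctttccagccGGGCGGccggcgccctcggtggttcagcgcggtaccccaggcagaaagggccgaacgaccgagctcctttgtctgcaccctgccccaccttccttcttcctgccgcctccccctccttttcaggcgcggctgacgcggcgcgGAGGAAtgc
The stretch before Itga4 held 1 Sp1 box, 114 bases before the start, and neither of the other motifs. That before Itgb1 held an Sp1 box at 151 bases and a PU.1 core at 9 bases before the start, and the one before Itgb7 held no match to these letters. Its GC content was 55.6%, against 64.0% for Itga4 and 68.0% for Itgb1. Promoter sequences were matched for 6 of the 9 members, and in the others of these, Itga5 held 1 PU.1 core and 2 Sp1 boxes, Itgav held 2 PU.1 cores and Itga1 held none. Over 250 bases of 32851 promoters, 23.3% held the PU.1 core, 32.7% the Sp1 box and 6.75% the AP-1 letters. These matches describe letters in a window and were not related to binding.

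Itga4, the α chain of α4β1 and α4β7, lies on chromosome 2 of GRCm38 from 79255426 to 79333123. It had 8772, 9146 and 8974 counts in CON replicates 1, 2 and 3, and 12007, 11013 and 9906 counts in sTREM-1 replicates 1, 2 and 3. After scaling these were 214, 223 and 219.8 CPM in the CON group and 263, 258 and 249.7 CPM after sTREM-1. Every sTREM-1 library lay above every CON library. The means were 219 ± 4.43 and 257 ± 6.69 CPM (SD, n = 3 each), which gives 0.23 ± 0.03 (standard error) on the log2 scale at an adjusted p of 6.24e-08 (edgeR quasi-likelihood), with a 95% interval of the change from 13.0% to 21.9%. By p-value the gene ranked 426 among all tested genes. Part of its exons, 8.04% of their length, overlaps exons of Cerkl on the opposite strand, whose own row held at most 52 counts in a library.

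Itgb7, the β chain that pairs with α4 and αE, lies on chromosome 15 from 102215995 to 102231944. Its levels were 86.8, 82.9 and 90.6 CPM in CON replicates 1 to 3 and 73.1, 76.1 and 77.2 CPM in sTREM-1 replicates 1 to 3. All sTREM-1 libraries were thus below all CON libraries. Itgb7 fell by 0.20 on the log2 scale (standard error 0.04, edgeR quasi-likelihood adjusted p = 0.00011), from 86.8 ± 3.87 to 75.5 ± 2.11 CPM (SD, n = 3 each), and the interval of the change ran from -17.6% to -8.25%. Itgae, the other α chain known for β7, had 0 or 1 count per library.

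Itga6, the laminin-binding α chain on chromosome 2 from 71745616 to 71858416, had 172.9, 173.8 and 175.4 CPM in the CON libraries. After sTREM-1 it had 163.3, 166.2 and 156.9 CPM. The groups did not overlap, and the CON libraries lay within 3 CPM of each other. On the log2 scale the change was -0.10 ± 0.03 (standard error) at an adjusted p of 0.00682 (edgeR quasi-likelihood), with an interval of the change from -10.5% to -2.93%, and this was the smallest change of the 3 called members.

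**Figure D1:**
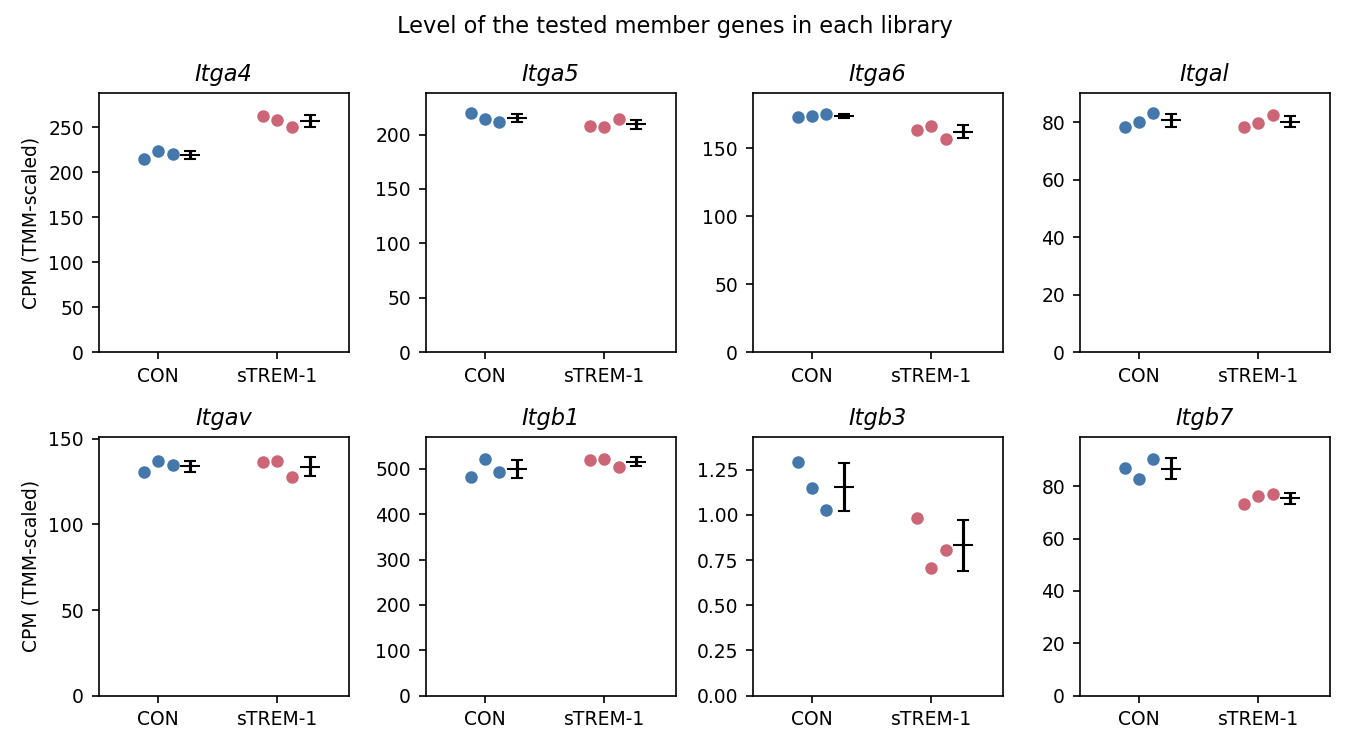
TMM-scaled CPM (vertical axes from 0) of the 8 tested members in each of the 3 CON (blue) and 3 sTREM-1 (red) libraries, with the group mean and SD (n = 3) in black. Itga4 is higher in all sTREM-1 libraries (250 to 263 against 214 to 223 CPM), Itga6 and Itgb7 are lower in all of them, and Itgb3 lies near 1 CPM.

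Itgb1, the most abundant member and the β chain of α1, α4, α5, α6 and αV, had 482.8, 522.3 and 493.9 CPM in the CON group and 520.0, 522.7 and 504.0 CPM after sTREM-1. The groups overlapped because CON replicate 2 was as high as the sTREM-1 libraries. Its log2 fold change of 0.05 (standard error 0.03) did not pass the test (edgeR quasi-likelihood adjusted p = 0.201), and the interval of the change ran from -0.501% to 7.01%. Without CON replicate 2 the log2 fold change was 0.08 and passed (edgeR adjusted p = 0.0262), while without each other library it was 0.06 or less and did not pass. A call for Itgb1 thus rests on which CON libraries are used.

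Itga5, the α chain of the fibronectin receptor α5β1 on chromosome 15 from 103344286 to 103366763, had 211.8 to 219.4 CPM in the CON group and 207.0 to 214.4 CPM after sTREM-1. Its change was -2.62%, with an interval from -6.26% to 1.16% (edgeR adjusted p = 0.315). The log2 fold change was -0.038 with all libraries, -0.025 without CON replicate 1 and -0.056 without sTREM-1 replicate 3. Itgav, the αV chain, had 130.4 to 137.0 CPM and 127.5 to 137.3 CPM, and the interval of its change ran from -4.55% to 4.61%. For Itgal, the αL chain of the leukocyte integrin LFA-1, the levels were 78.5 to 83.0 CPM and 78.4 to 82.4 CPM, and the interval was -5.48% to 4.75%. For these 3 α chains the groups overlapped. Of the exons of Itgav, 5.90% of the length overlaps those of another annotated gene on the opposite strand, Gm13684. The adjusted p-values of Itgav and Itgal were 0.987 and 0.914 (edgeR).

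Itgb3, the β chain of the αVβ3 receptor for vitronectin and osteopontin, on chromosome 11 from 104608000 to 104670476, was near the limit of the test. Its counts were 53, 47 and 42 without sTREM-1 and 45, 30 and 32 with it, or 1.16 ± 0.133 and 0.832 ± 0.142 CPM (SD, n = 3 each). Although the scaled levels of the groups did not overlap, the log2 fold change of -0.47 had a standard error of 0.31 and was not called (edgeR adjusted p = 0.283), and its interval from -53.7% to 12.3% spans both a large decrease and a small increase. Itga1, the collagen-binding α1 chain on chromosome 13 from 114953096 to 115101964, had 0 counts in all 6 libraries, which allows up to 0.0657 to 0.0756 CPM per library at a limit of 3 counts if its reads were counted. In all, 4 of the 8 tested members had groups that did not overlap, against 40.7% of all tested genes. Of these, Itga4 lay above (21.3% of all tested genes did) and Itga6, Itgb3 and Itgb7 lay below (19.4%).

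**Figure D2:**
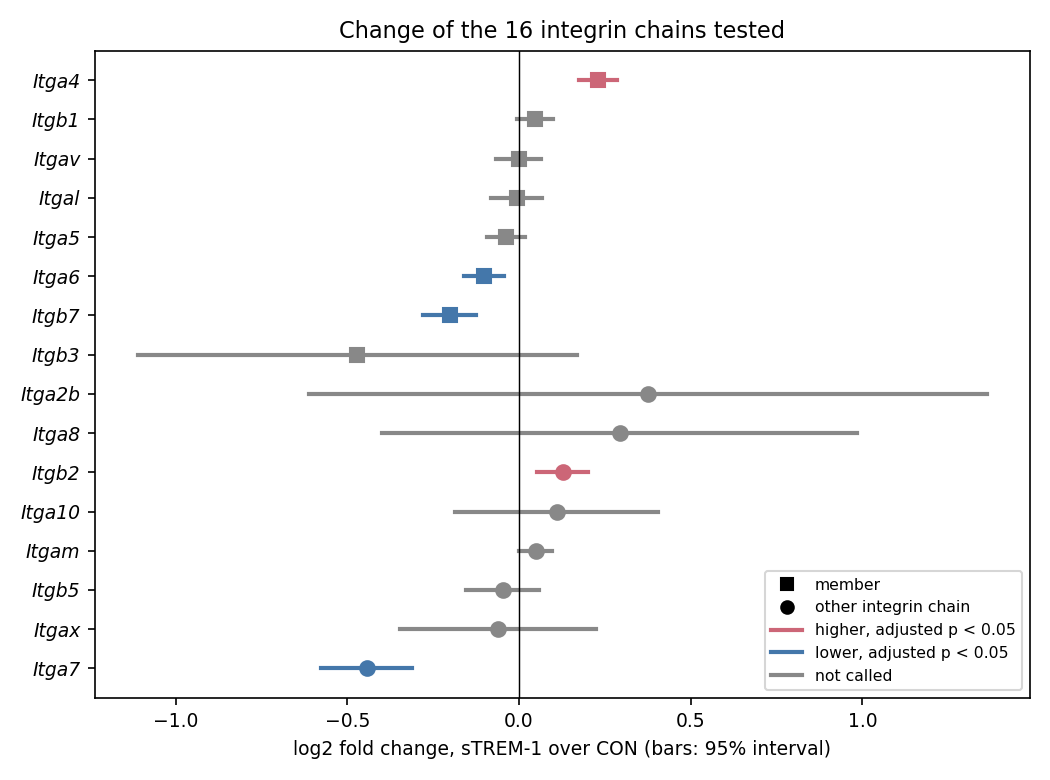
Log2 fold change of sTREM-1 over CON (horizontal axis) with 95% intervals for the 16 integrin chains that passed the low-count filter, members as squares and other chains as circles, coloured by the call at an adjusted p-value under 0.05. Itga4 (0.23) and Itgb2 (0.13) lie to the right of 0, Itga6, Itgb7 and Itga7 lie to the left, and chains of few counts such as Itgb3 and Itga2b have wide intervals.

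Levels were compared between genes only per kilobase of exon, using the length of all annotated exons of a gene. On this scale Itgb1 stood first in the CON group with 122 ± 4.98 CPM per kb (SD, n = 3), followed by Itga5 with 43.6 ± 0.784, Itgb7 with 31.3 ± 1.40, Itga6 with 19.3 ± 0.141 and Itga4 with 15.7 ± 0.317 CPM per kb. Itgav with 12.5 ± 0.307 and Itgal with 12.3 ± 0.351 CPM per kb came next, and their libraries overlapped. Itgb3 was last of the members with counts, at 0.196 ± 0.0226 CPM per kb. After sTREM-1, Itga4 with 18.4 ± 0.479 CPM per kb reached the level of Itga6 with 18.0 ± 0.531, and the libraries of this pair overlapped, while in the CON group they did not. The order of near neighbours depends on the length used. With the longest protein-coding transcript, Itga6 had 40.4 ± 0.295 CPM per kb in the CON group, above Itgb7 with 32.3 ± 1.44, and Itga4 stayed below Itga6 in both groups.

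**Figure D3:**
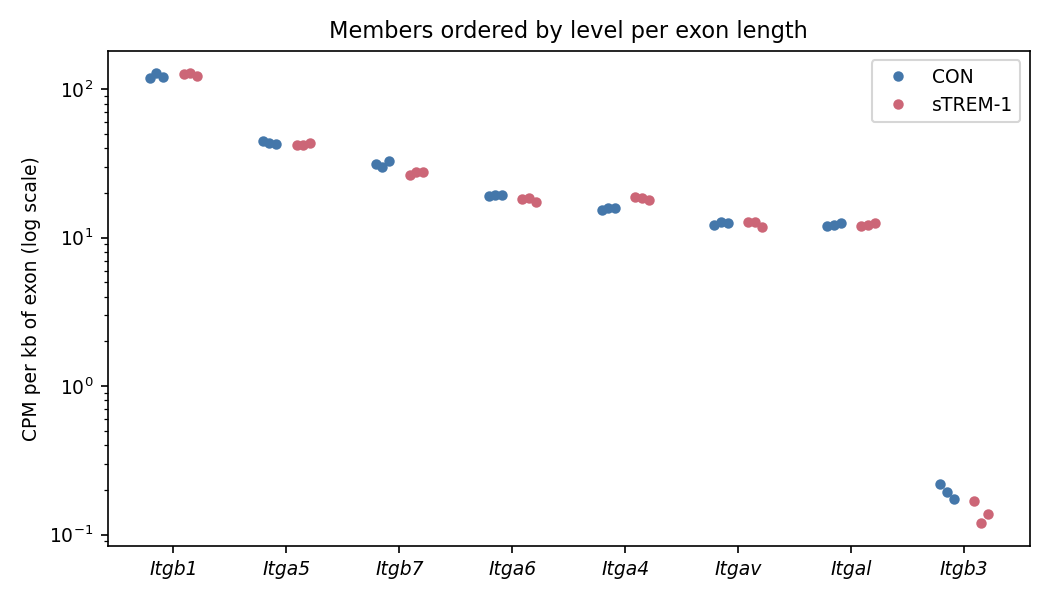
CPM per kb of exon (log axis) of the 8 members with counts in each CON (blue) and sTREM-1 (red) library, ordered by the CON mean. Itgb1 has group means of 122 and 126, the libraries of the 6 genes of moderate level lie between 11.9 and 44.5, and those of Itgb3 lie under 0.22.

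As a share of the per-length level of the member α chains that pair with β1, Itga4 made up 17.2% ± 0.338 in the CON group and 20.1% ± 0.395 after sTREM-1 (SD, n = 3 each). The share of Itga6 was 21.2% ± 0.232 and 19.7% ± 0.457, and that of Itga5, the largest, was 47.9% ± 0.790 and 46.5% ± 1.24. Every sTREM-1 library exceeded every CON library for the share of Itga4, and the reverse held for Itga6. The exact permutation test gave p = 0.1 for both, two-sided, which is the smallest that 3 libraries against 3 allow, and p = 0.3 for Itga5. Among the member β chains, Itgb1 made up 79.5% ± 1.26 and 82.2% ± 0.620, and Itgb7 20.4% ± 1.26 and 17.7% ± 0.628. These shares were computed after the values of the members had been seen.

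Because integrins are pairs, the counts of an α chain were set against those of a known partner within each library, for 7 pairs with counts in all libraries. The ratio of Itga4 to Itgb7 counts was 2.47, 2.69 and 2.43 in CON replicates 1 to 3 and 3.59, 3.39 and 3.23 in sTREM-1 replicates 1 to 3. Its mean was 1.35-fold higher after sTREM-1, a log2 difference of 0.43, from chains that moved in opposite directions. The ratio of Itga4 to Itgb1 counts was 0.427 to 0.445 in the CON group and 0.494 to 0.505 after sTREM-1, a log2 difference of 0.18. For Itga6 over Itgb1 the log2 difference was -0.15 and for Itgal over Itgb2, the LFA-1 pair, it was -0.13, again with groups that did not overlap. The ratio of Itgav to Itgb3 counts had a log2 difference of 0.48, but rests on the 30 to 53 counts of Itgb3. Differences for Itga5 over Itgb1 and Itgav over Itgb1 were -0.08 and -0.05, with overlapping groups. In the exact permutation test, two-sided, the pairs without overlap had p = 0.1, the smallest possible, and an adjusted p of 0.14 over the 7 pairs, so that no ratio could pass a threshold of 0.05 in this design. Counts were not divided by length here, and only differences between groups of the same ratio were compared.

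**Figure D4:**
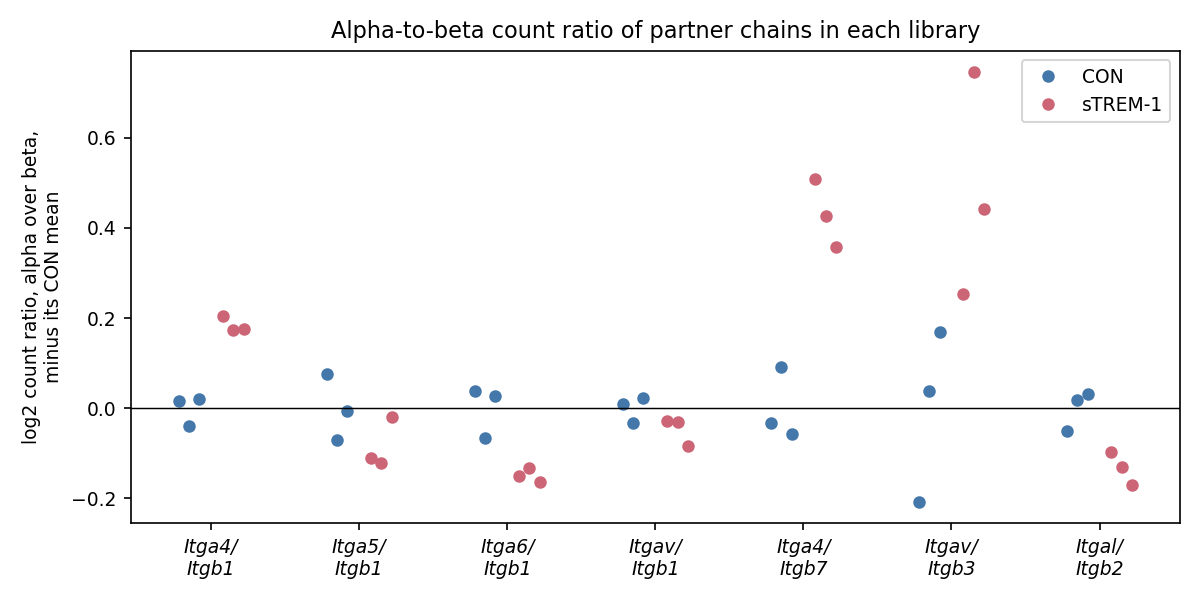
Log2 ratio of α-chain to β-chain counts in each library, minus its CON mean (vertical axis), for 7 partner pairs in 3 CON (blue) and 3 sTREM-1 (red) libraries. The red points of Itga4 over Itgb7 lie 0.36 to 0.51 above the CON mean on the log2 scale, and those of Itga6 over Itgb1 and Itgal over Itgb2 lie below all blue points.

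Among the 18 other integrin chains, 8 were tested, of which 1 was higher and 1 was lower, that is 2 of 8 against 30.5% of all tested genes. Itgb2, the β chain of the leukocyte integrins, was higher, by 0.13 ± 0.04 (standard error) on the log2 scale (edgeR adjusted p = 0.00731), but without sTREM-1 replicate 3 it was 0.09 and no longer passed (edgeR adjusted p = 0.0853). Itga7, a laminin-binding α chain, had 27.2 ± 2.14 CPM in the CON group and 20.03 ± 0.230 CPM after sTREM-1 (SD, n = 3 each) and fell by 0.44 on the log2 scale (edgeR adjusted p = 3.06e-06). Itgam and Itgb5 had log2 fold changes of 0.05 and -0.05, and Itgax, Itga10, Itga8 and Itga2b had -0.06, 0.11, 0.29 and 0.38, none of which were called. With 1 library left out, the log2 fold change ran from 0.06 (without CON replicate 3) to 0.75 (without CON replicate 2) for Itga2b, from 0.20 to 0.46 for Itga8 and from 0.06 to 0.18 for Itga10, and none was called. For Itgb5 it ran from -0.079 (without CON replicate 2) to -0.022 (without CON replicate 3), also without a call. Of the exon length of Itgam 68.7%, and of that of Itga10 33.5%, is shared with another gene model on the same strand. The 10 other chains not tested had at most 23 counts in a library, and 5 of them, Itga3, Itga11, Itgad, Itgb2l and Itgb6, had 0 counts in all libraries. When CON replicate 1 was left out, the filter admitted Itgb4, which was then called lower.

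A list of 19 genes held regulators of integrin activation, both activators and inhibitors, of which 16 were tested, 7 were higher and 3 were lower, and the median of their log2 fold changes was 0.0762. Talin and kindlin bind the β tail, and the talin gene Tln1 had a log2 fold change of 0.0047 and was not called (edgeR adjusted p = 0.904). Tln2, the other talin gene, had 8.01 ± 0.825 CPM without and 15.5 ± 0.826 CPM with sTREM-1 (SD, n = 3 each) and rose by 0.95 on the log2 scale (edgeR adjusted p = 1.7e-09). The leukocyte kindlin Fermt3 rose by 0.20 and Flna, which encodes filamin A, an actin crosslinker that competes with talin for β tails, rose by 0.30 on the log2 scale. The small GTPases that recruit talin went the other way, with log2 fold changes of -0.25 for Rap1b and -0.15 for Rap1a. Itgb1bp1, which encodes ICAP-1, an inhibitor that binds the β1 tail, fell by 0.22 on the log2 scale.

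Of 30 genes of the adhesion complex, the layer of proteins between integrin tails and actin, 28 were tested, 6 were higher and 6 were lower, and the median log2 fold change was 0.0225. Ptk2b, which encodes the focal adhesion kinase relative PYK2, rose by 0.28, and Dock1, an exchange factor for Rac, and Git2 rose by 0.30 and 0.18. Vasp, an actin regulator, Elmo1, the partner of DOCK1, and Tes had log2 fold changes of -0.22, -0.19 and -0.11 and were called lower. Ptk2, Vcl and Pxn, which encode focal adhesion kinase, vinculin and paxillin, had log2 fold changes of -0.01, 0.07 and 0.04 and were not called.

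Of 36 ligand genes 34 were in the table and 17 were tested, with 5 higher and 3 lower, and their median was -0.104 on the log2 scale. Mfge8, which bridges αV integrins to phosphatidylserine on dying cells, rose by 0.17, Icam1, a ligand of αL, rose by 0.37, and Adam9 rose by 0.16. Lamc1, the laminin γ1 chain, had 589.6 ± 10.6 CPM without and 492 ± 11.03 CPM with sTREM-1 (SD, n = 3 each) and fell by 0.26 on the log2 scale (edgeR adjusted p = 2.8e-10), and Thbs1, or thrombospondin-1, fell by 0.74. F11r, a junctional adhesion molecule bound by αL, had a log2 fold change of -0.33 and passed narrowly (edgeR adjusted p = 0.0494). It passed in 1 of the 6 fits that each left out a library, without CON replicate 1, and in the other 5 its adjusted p was up to 0.219. The α4 ligands Vcam1, Madcam1 and Fn1 had at most 5, 15 and 2 counts in a library and were not tested. Spp1, or osteopontin, a ligand of α4 and αV integrins, had 843349 to 971761 counts per library and a log2 fold change of 0.05 (edgeR adjusted p = 0.00285).

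Among the 11 genes of membrane partners, 9 were tested, with 2 higher and 3 lower, and their median was -0.0689 on the log2 scale. Of the 5 tetraspanins listed, which hold integrins in membrane domains, Cd81 was called higher with a log2 fold change of 0.17, and Cd9, Cd63 and Cd82 were called lower with -0.25, -0.11 and -0.10. Cd151 had a log2 fold change of -0.07 and was not called (edgeR adjusted p = 0.303). The call of Cd82 (edgeR adjusted p = 0.039) held in 2 of the 6 fits that each left out a library, those without CON replicate 2 and without sTREM-1 replicate 3, and in the other 4 its adjusted p was up to 0.157. Nrros, which tethers latent TGF-β for release by αV integrins, had 109 ± 1.94 CPM without and 139 ± 3.75 CPM with sTREM-1 (SD, n = 3 each) and rose by 0.35 on the log2 scale. Of 16 trafficking genes, 15 were tested, 2 were higher and 1 was lower, with a median of 0.0047. Arrb1, or β-arrestin 1, rose by 0.58, Snx17, a sorting nexin that recycles β1 integrins, rose by 0.21, and Rab11fip1, an effector of recycling Rab proteins, fell by 0.20 on the log2 scale. The share of tested genes called was 62.5% for activation, 42.9% for the adhesion complex, 47.1% for ligands and 55.6% for membrane partners. For trafficking it was 3 of 15, and over all tested genes it was 30.5%. Genes with many counts can be called at small changes, as Spp1 was at a log2 fold change of 0.05. Itgb3, with few counts, was not called at -0.47. The lists, like the members and markers, were not matched by level to all tested genes. The lists were compiled from general knowledge, but with earlier results of these data known. They are described by these counts without a test of the list.

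**Figure D5:**
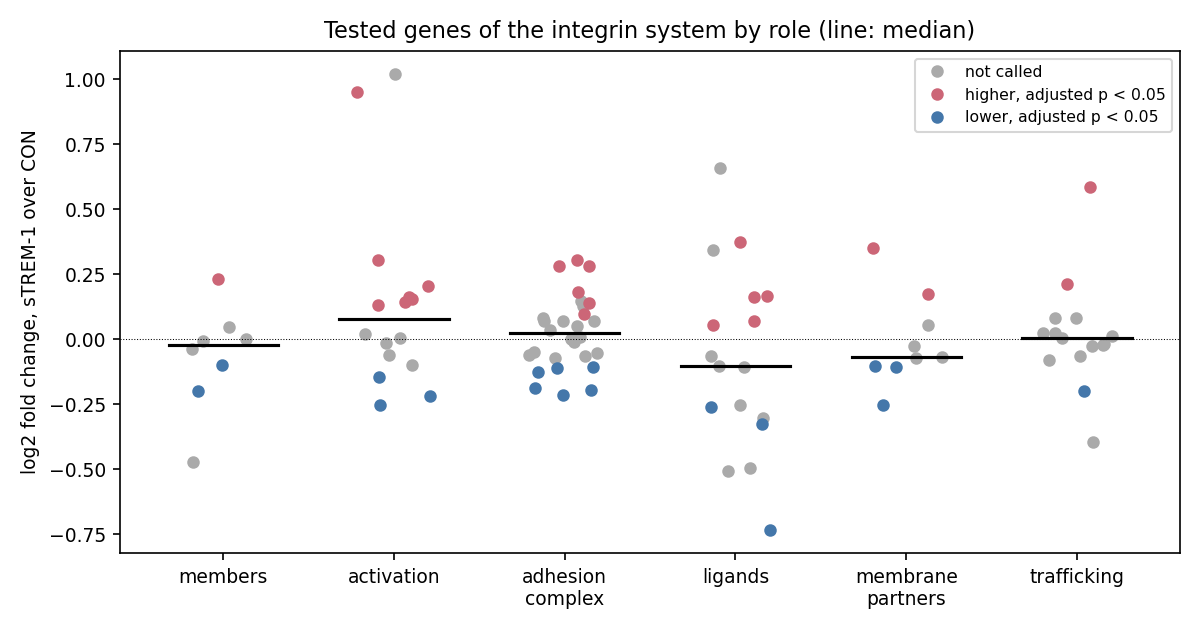
Log2 fold change of sTREM-1 over CON (vertical axis) of each tested gene, for the members and 5 lists of the integrin system, coloured by the call at an adjusted p-value under 0.05, with a line at the median of each list. Medians lie between -0.104 and 0.0762, and each list holds genes called in both directions.

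The genes whose profile over the 6 libraries was nearest to that of Itga4, by the root mean square difference of centred log2 CPM, were Hp1bp3, A630033H20Rik and Kif11, at 0.016, 0.0169 and 0.0175, out of 9043 genes with at least 10 CPM outside the integrin family. For Itgb7 they were Stx6, Srpr and Sec16a, at 0.0144, 0.0197 and 0.0209. The log2 fold changes of the former lay between 0.20 and 0.22 and those of the latter between -0.19 and -0.16. Nearness to those of Itga4 and Itgb7 follows from the choice over the same 6 libraries and is no separate result.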

How the data were processed

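The series holds 3 CON and 3 sTREM-1 RNA-seq libraries of BV2 cells. The study's methods name FastQC for read quality, RSEM for quantification and edgeR for differential expression. The submitters' processing notes name HISAT2 2.0.4 and the builds hg19 and GRCh38, which are human, whereas the rows are mouse symbols. The mouse build, annotation and strand are not given in the sources used here. The methods give n = 4, and 3 libraries per group were analysed here. The deposited values are raw whole-number counts for each gene symbol, and how they treat reads shared by overlapping or similar genes is not known.

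Genes were filtered with filterByExpr (minimum count 10), which left 14120 of 46095, scaled by TMM and compared in edgeR 4.0.16 (R 4.3.3) by its quasi-likelihood test without covariates and Benjamini-Hochberg adjustment over all tested genes. Standard errors were derived from each F statistic. The biological coefficient of variation was 3.99%. Library totals of 40070633 to 45877107 make counting error small for all tested members but Itgb3, and the limit of 3 counts covers counting error only. Ratios and shares were compared with an exact permutation test over libraries, with adjustment over 7 of the 8 planned ratios, since Itga1 had no counts. Coordinates and exon lengths come from GENCODE M21 (GRCm38), used for names and lengths only.

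The procedure was tested on simulated counts. Genes named are all members, the tested integrin chains, up to 3 called genes per list and direction with the smallest p-values, and the 3 nearest profiles of the members of largest rise and fall, with Trem1 and the cell type markers as a check of the labels. Other genes (Tln1, Ptk2, Vcl, Pxn, Spp1, Cd151, Rab5a, Bag6, Ddx39b, overlapping genes, the α4 ligands and untested chains) were named after their values were seen. Alternatives were RLE factors, total counts, no filter, at least 10 counts in every library, DESeq2 1.42.0, a replicate block, each library left out, and for ratios a pseudocount of 0.5. The members and lists were chosen with earlier results of these data known.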

Additional observations from a re-analysis of the deposited data

How the results depend on the processing

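Itga4, Itga6 and Itgb7 kept their direction and their call in all 12 alternatives (RLE factors, total counts, no filter, at least 10 counts in every library, DESeq2, the replicate block and 6 fits that each left out a library). Their log2 fold changes ran from 0.21 to 0.25, from -0.12 to -0.08 and from -0.24 to -0.17, with adjusted p-values of at most 5.74e-06, 0.041 and 0.00246. Itga5, Itgal, Itgav and Itgb3 were called in none. The sign of changes near 0 was not fixed. For Itgav the log2 fold change was 0.0016 without a filter, 0.013 without CON replicate 2 and 0.030 without sTREM-1 replicate 3 (range over left-out libraries -0.021 to 0.030). For Itgal it was 0.013 without CON replicate 3 and 0.0088 without sTREM-1 replicate 1 (-0.028 to 0.013). For Itgax it was 0.024 without sTREM-1 replicate 3 (-0.14 to 0.024). The number of members called was 3 or 4 and that of all genes 3608 to 4613, and 32 to 41 genes of the pathway lists were called. Cd82 and F11r also lost their calls without a filter (edgeR adjusted p = 0.0564 and 0.0798), and F11r under DESeq2 (adjusted p = 0.0674). The cause was not tested. Without CON replicate 3 a second trafficking gene, Rab5a, was called lower. The median log2 fold change of all genes was -0.0017 with TMM, -0.0048 with RLE factors and -0.018 with total counts.

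Across genes, the correlation between the deviations of libraries that carry the same replicate number was -0.018, -0.033 and -0.014. No common deviation was thus seen over all tested genes, but a batch that touched few genes would not show here. The labels do not say what the number stands for. Under the replicate block 4613 genes were called in place of 4312, the number of members called stayed at 3, and 41 pathway genes were called in place of 38. The pair ratios and the shares of Itga4, Itga5 and Itga6 kept their direction with each library left out and, for ratios, with a pseudocount of 0.5. The block cannot change these directions, since both groups hold the same replicate numbers. The other shares were not recomputed. With the longest coding transcript as length, an alternative chosen after seeing the data, the share of Itga4 rose by 2.99 points in place of 2.93. Among the members with counts, depth limits only Itgb3. Whether the 0 counts of Itga1 come from depth, from the counting or from a silent gene was not tested.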
